A study of Mus musculus x Mus spretus with 8 samples.

Results

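The genes described here encode the nuclear share of the oxidative phosphorylation machinery. They are the protein-coding nuclear genes of GENCODE mouse release 21 whose symbol begins with Nduf, Sdha, Sdhb, Sdhc, Sdhd, Uqcr, Cox4, Cox5, Cox6, Cox7, Cox8 or Atp5, together with Cyc1 and Cycs. Of 100 such entries, 99 were found by Ensembl identifier in the count table of 49670 genes; the other is a second Atp5o entry. An expression filter kept 94 of the 99 among 17839 genes tested. The 5 genes that did not pass it were the complex IV isoforms Cox4i2, Cox6b2, Cox7b2, Cox8b and Cox8c. Each of these stood between 0 and 0.0521 CPM (a gene's counts scaled to the size of its library) in all 8 libraries. By complex the 99 genes comprised 44 of complex I, 8 of complex II, 9 of complex III, 20 of complex IV, 17 of complex V and Cycs.

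In oxidative phosphorylation, complexes I and II pass electrons from NADH and succinate to ubiquinone, complex III passes them to cytochrome c, and complex IV passes them to oxygen. Complexes I, III and IV pump protons across the inner mitochondrial membrane, and complex V uses the gradient to make ATP. All of these except complex II combine subunits of nuclear and mitochondrial genes, so that the nuclear and the mitochondrial genome are read together to build one enzyme.

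RNA came from Patski cells, a fibroblast line from a female hybrid mouse with C57BL/6 and SPRET/EiJ parents, in which many reads can be assigned to the genome of a single parent. There were 2 libraries each of Stc1 -/- cells, Pygo1 -/- cells, Rlim -/- cells and wild-type (WT) cells, all grown in DMEM with 10% FBS. The series describes the mutant libraries as coming from independent mutants of this line and does not say how the WT pair arose, so p-values measure the spread between these libraries, which may be technical. Total counts ran from 73128996 to 81500061 per library. Within each pair the libraries differed by more than counting error (median chi-square per gene of 19.4 in the Stc1, 8.19 in the Pygo1, 1.51 in the Rlim and 2.5 in the WT pair, against 0.455 from counting alone). The RNA of the targeted gene was not called lower under any label: Stc1 stood at 3.67 and 68.4 CPM in the libraries labelled Stc1 and at 3.84 and 3.15 CPM in WT, Pygo1 at 2.5 and 0.674 CPM in those labelled Pygo1 and at 2.49 and 2.44 CPM in WT, and Rlim at 71.9 and 64.2 CPM in those labelled Rlim and at 57.2 and 51.4 CPM in WT. Groups are therefore named by their labels. Of 11 fibroblast markers, Vim (833 to 1279 CPM) and Fn1 (1545 to 4562 CPM) were abundant, Col1a1 stood at 2.03 to 8.19 CPM, and Col1a2, Col3a1, Pdgfrb, Thy1 and Lum were under 1 CPM in every library.

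**Figure D1:**
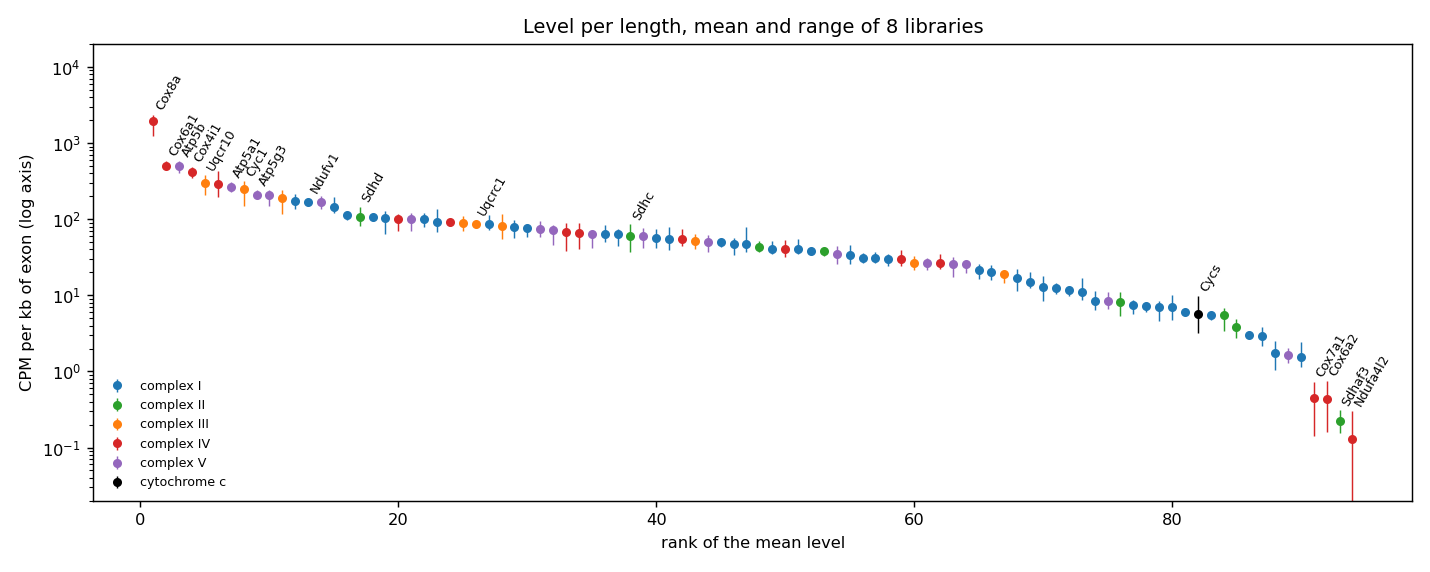
Level of the 94 tested genes per length (CPM per kb of exon, log axis) against their rank; points are means over 8 libraries and bars run from the lowest to the highest library. Cox8a stood highest at 1930 CPM per kb, and the complex IV isoforms Cox7a1, Cox6a2 and Ndufa4l2 and the assembly factor Sdhaf3 were all under 1 CPM per kb.

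The levels of these genes differed widely within each complex. For this comparison CPM was divided by the exon length of each gene, taken over all annotated exons of all its transcripts. The order therefore depends on the annotation. By counts alone Atp5b, with 4237 bases of exon, stood above Cox8a, with 619 (means of 159325 and 91050 counts over 8 libraries). Cox8a, a small subunit of complex IV, stood highest, at 1791 ± 799 CPM per kb in the libraries labelled Stc1, 2108 ± 25.1 in those labelled Pygo1, 2028 ± 20.2 in those labelled Rlim and 1793 ± 127 in WT (SD, n = 2 each). Cox6a1 of complex IV came next with a mean of 505 ± 41.6 CPM per kb over the 8 libraries (SD, n = 8), followed by Atp5b, the catalytic beta subunit of complex V, with 493 ± 59.8, and Cox4i1 with 422 ± 50.4. Cox6a1 and Atp5b did not differ beyond that spread. Cycs, the electron carrier cytochrome c, ranked 82nd of the 99 genes per length, at 5.74 ± 2.41 CPM per kb. The alternative complex IV isoforms that passed the filter were close to undetectable. Cox7a1 stood at 0.443 CPM per kb, Cox6a2 at 0.431 and Ndufa4l2 at 0.131, as means over 8 libraries. The muscle and adipose markers Myh1, Myh7, Ckm, Ckmt2, Adipoq and Ucp1 were likewise under 1 CPM in every library.

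Summed over the 99 genes, nuclear respiratory chain RNA stood at 15628 and 11664 CPM in the libraries labelled Stc1, at 13168 and 14280.2 CPM in those labelled Pygo1, at 14342 and 14413 CPM in those labelled Rlim, and at 14243 and 15620.3 CPM in WT. The Stc1 pair spanned more than the range of all other libraries, and its replicate 1 was the highest and its replicate 2 the lowest of the 8. The Pygo1 and Rlim pairs overlapped the WT pair in this sum. Because a sum follows the few most abundant genes, the median over the 94 tested genes was also taken, as log2 of the level relative to the WT mean. It was -0.06 and -0.40 in the libraries labelled Stc1, -0.28 and -0.17 in those labelled Pygo1, -0.19 and -0.23 in those labelled Rlim, and -0.07 and 0.07 in WT. The 4 Pygo1 and Rlim libraries and Stc1 replicate 2 lay below both WT libraries by this measure, and Stc1 replicate 1 lay between them. In bulk RNA, fewer cells of a kind and less RNA per cell cannot be told apart.

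**Figure D2:**
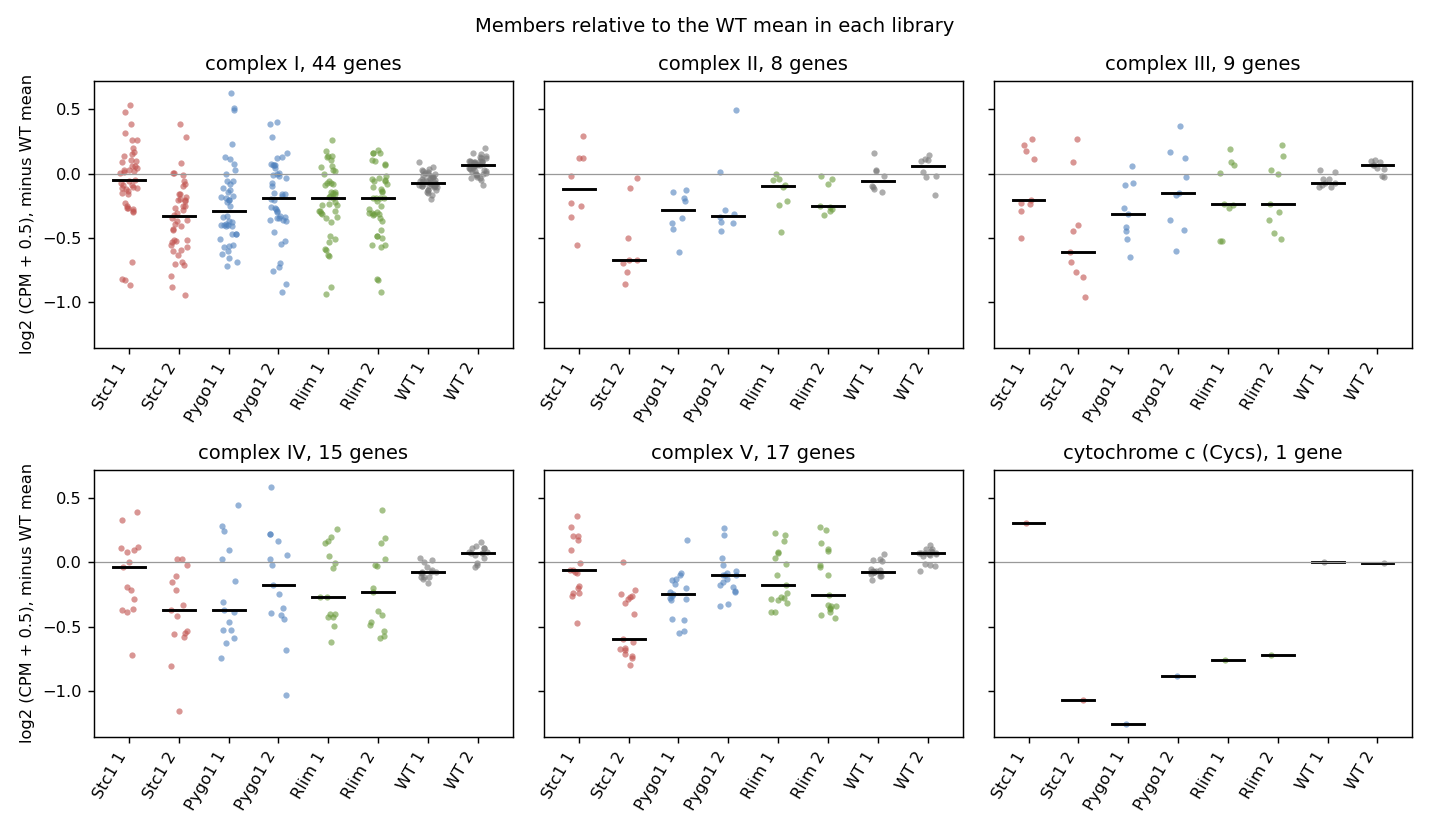
Each tested gene in each library as log2 (CPM + 0.5) minus the WT mean, by complex; points are genes, black bars are medians, and replicates are numbered by library. In every complex with more than 1 gene the median of each library labelled Stc1 replicate 2, Pygo1 or Rlim lay below both WT medians, while Stc1 replicate 1 lay above WT replicate 1 in complexes I, IV and V.

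No gene of the set was called different from WT under any label (edgeR quasi-likelihood test, called at a Benjamini-Hochberg adjusted p under 0.05 over all genes). Of the 94 tested, 0 were called under the Stc1, Pygo1 or Rlim label, where 0.577%, 2.35% and 1.40% of all genes were. At an unadjusted p under 0.05, 19 genes were lower and 0 higher under the Stc1 label (7.56% and 8.48% of all genes), 20 lower and 1 higher under the Pygo1 label (9.37% and 11.3%), and 15 lower and 1 higher under the Rlim label (9.09% and 8.82%). DESeq2 called 5, 7 and 5 genes, against 5.24%, 9.46% and 7.85% of all genes, and each of these was lower than in WT. They were Cox5b, Ndufb4, Ndufc2, Sdhaf4 and Uqcrq under the Stc1 label, Cox7a2l, Ndufa9, Ndufb2, Ndufb5, Ndufb7, Ndufc2 and Uqcrc2 under the Pygo1 label, and Ndufa1, Ndufa9, Ndufaf2, Ndufb11 and Ndufc2 under the Rlim label.

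The 0 calls did not hold without either Stc1 library, whose pair enters the shared error of every comparison. Without Stc1 replicate 1, edgeR called 27 genes lower and 2 higher under the Pygo1 label (9.37% and 10.3% of 18662 genes) and 21 lower and 0 higher under the Rlim label (8.65% and 7.61%). Without Stc1 replicate 2, it called 27 lower and 2 higher under the Pygo1 label (9.45% and 10.3% of 18610 genes) and 20 lower and 0 higher under the Rlim label (8.67% and 7.63%). The Stc1 label itself then had 41 genes lower with replicate 2 alone (12.9%), and 5 lower and 1 higher with replicate 1 alone (3.65% and 2.86%). A lone library was assumed to vary like the other groups.

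The direction of the fitted values was mostly downward. The log2 fold change was below 0 for 80 of the 94 genes under the Stc1 label (48.4% of all genes), for 75 under the Pygo1 label (50.1%) and for 71 under the Rlim label (49.4%). The median log2 fold change of the 94 was -0.22, -0.23 and -0.23 for the Stc1, Pygo1 and Rlim labels, against 0.01, -0.00 and 0.01 over all genes tested. Both labelled libraries lay below both WT libraries for 37 genes under the Stc1 label (22.2% of all genes), 56 under the Pygo1 label (31.0%) and 57 under the Rlim label (35.6%). Both lay above for 2, 9 and 16 genes (22.2%, 29.6% and 35.7%). The 3 comparisons share the WT libraries, and WT replicate 2 was above replicate 1 in most of the set: it was lower in only 20 of 94 genes (47.1% of all genes). The Stc1 median rested on replicate 2. It was -0.45 without Stc1 replicate 1 and -0.07 without Stc1 replicate 2, and replicate 2 was lower than replicate 1 in 76 of 94 genes (50% of all genes).

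Of the 94 genes, 27 lay below both WT libraries in all 6 libraries of the mutants, where 9.5% of all genes did, and 1 lay above in all 6, where 9.3% did. The 27 held 13 genes of complex I, among them Ndufc2, Ndufb5 and Ndufs5, 2 of complex II (Sdhb and Sdhd), 4 of complex III (Uqcr10, Uqcrc2, Uqcrfs1 and Uqcrq), 4 of complex IV (Cox7a2, Cox7b, Cox7c and Ndufa4) and 4 of complex V (Atp5e, Atp5j, Atp5k and Atp5l). The gene above WT throughout was Ndufv3, a subunit of the NADH-oxidising module of complex I. It stood at 117 and 147 CPM in the libraries labelled Stc1, at 174 and 116 CPM in those labelled Pygo1, at 127 and 126 CPM in those labelled Rlim, and at 112 and 113 CPM in WT, with log2 fold changes of 0.22, 0.36 and 0.17, each ± 0.20 (SE; edgeR, adjusted p = 0.629, 0.366 and 0.725).

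Complex I, the NADH dehydrogenase, summed to 3538 and 2924 CPM in the libraries labelled Stc1, 3250.0 and 3355 in those labelled Pygo1, 3241 and 3250.4 in those labelled Rlim, and 3439 and 3791 in WT. Its 7 nuclear core subunits carry the flavin and iron-sulfur clusters. They had median log2 fold changes of -0.11, 0.02 and -0.00 for the Stc1, Pygo1 and Rlim labels. The 29 accessory subunits, which surround and stabilise the core, had medians of -0.27, -0.34 and -0.31. The 8 assembly factors had medians of -0.03, -0.20 and -0.03. The core and accessory genes were not tested against each other.

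Among the accessory subunits, Ndufc2 of the membrane arm (chromosome 7, 97400003 to 97407802, GRCm38) had low values under each label. It stood at 31.9 and 29.5 CPM in the libraries labelled Stc1, 31.9 and 28.2 in those labelled Pygo1, 34.1 and 28.9 in those labelled Rlim, and 44.9 and 59.4 in WT. All 6 values lay below both WT values, and the WT libraries differed from each other by more than any of the labelled pairs did. Under the Stc1, Pygo1 and Rlim labels its log2 fold change was fitted at -0.76 ± 0.17, -0.79 ± 0.17 and -0.73 ± 0.17 (± gives the SE here and below, from 2 libraries per group), with adjusted p of 0.119, 0.0673 and 0.0928 by edgeR. Ndufb4, also of the membrane arm, stood at 9.18 and 11.2 CPM in the libraries labelled Stc1 and at 15.4 and 19.1 CPM in WT. Its log2 fold change was -0.76 ± 0.19 (edgeR, adjusted p = 0.154). Ndufb5, another membrane-arm subunit, came nearest to the threshold of any gene in the set, at 35 and 32.1 CPM in the libraries labelled Pygo1 and 49.7 and 57.4 CPM in WT (log2 fold change -0.67 ± 0.13; edgeR, adjusted p = 0.0527). Ndufb5 overlaps Mrpl47 on the other strand, and whether reads were counted by strand was not given.

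Ndufa9, an accessory subunit near the ubiquinone site (chromosome 6, 126821721 to 126849136), was low under the Pygo1 and Rlim labels. It stood at 58.4 and 53.3 CPM in the libraries labelled Pygo1, 60 and 61.3 in those labelled Rlim, and 84.5 and 96.3 in WT, with no overlap between these groups. The log2 fold changes were -0.69 ± 0.15 and -0.58 ± 0.15 (edgeR, adjusted p = 0.0649 and 0.111). In the libraries labelled Stc1 it stood at 86.8 and 68.7 CPM, which overlapped WT. Upward values were fewer. Ndufs4, needed for the stability of the NADH-oxidising module, stood at 42.2 and 23.1 CPM in the libraries labelled Stc1, 48.3 and 44.7 in those labelled Pygo1, 27.4 and 26.9 in those labelled Rlim, and 34.5 and 32.9 in WT. The Pygo1 pair lay above WT, the Rlim pair below it and the Stc1 pair on both sides (log2 fold changes -0.05, 0.46 and -0.31, each ± 0.25; edgeR, adjusted p = 0.949, 0.352 and 0.576). The difference of 0.77 ± 0.26 between the Pygo1 and Rlim labels did not pass (edgeR, adjusted p = 0.207). Ndufa11 had log2 fold changes of 0.16, 0.18 and 0.17 under the Stc1, Pygo1 and Rlim labels. The assembly chaperone Ndufaf2 lay on opposite sides of WT by label, at 7.45 and 6.36 CPM in the libraries labelled Pygo1, 3.12 and 3.34 CPM in those labelled Rlim, and 4.68 and 5.64 CPM in WT. Its log2 fold changes against WT were 0.42 ± 0.19 and -0.67 ± 0.19, and the difference of 1.10 between the Pygo1 and Rlim labels did not pass (edgeR, adjusted p = 0.0555).

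Complex II, succinate dehydrogenase, is built from nuclear genes only. The flavoprotein gene Sdha, which oxidises succinate, stood at 162 and 159.9 CPM in the libraries labelled Stc1, 149.9 and 135 in those labelled Pygo1, 164 and 155 in those labelled Rlim, and 167 and 161 in WT. Its log2 fold changes of -0.03, -0.20 and -0.04 were among the smallest of the complex. The membrane anchor Sdhd stood at 126 and 99.6 CPM in the libraries labelled Stc1, 125 and 122 in those labelled Pygo1, 137 and 127 in those labelled Rlim, and 144 and 176 in WT. All 6 values lay below both WT values (log2 fold changes -0.50, -0.37 and -0.28; edgeR, adjusted p = 0.205, 0.242 and 0.402). Sdhaf4, which helps join Sdha to Sdhb, had the lowest fitted value of the whole set under the Stc1 label. It stood at 3.82 and 3 CPM in the libraries labelled Stc1 and at 5.76 and 5.9 CPM in WT (log2 fold change -0.77 ± 0.21; edgeR, adjusted p = 0.166). The other complex II genes ranged from -0.55 (Sdhaf3, Pygo1 label) to 0.21 (Sdhc, Pygo1 label).

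In complex III, the cytochrome bc1 complex, the core protein gene Uqcrc1 was the highest of all 94 genes under the Stc1 label. It stood at 382 and 395 CPM in the libraries labelled Stc1 and at 312 and 343 CPM in WT, without overlap (log2 fold change 0.25 ± 0.11; edgeR, adjusted p = 0.338). Its partner Uqcrc2 had log2 fold changes of -0.32, -0.52 and -0.27 (edgeR, adjusted p = 0.275, 0.0843 and 0.316). Uqcrq, a small accessory subunit (chromosome 11, 53427922 to 53430831), measured 140.4 and 102 CPM in the libraries labelled Stc1, 127 and 147 in those labelled Pygo1, 138 and 139.7 in those labelled Rlim, and 185 and 214 in WT. All 6 values lay below WT, with log2 fold changes of -0.72 ± 0.18, -0.54 ± 0.18 and -0.52 ± 0.18 (edgeR, adjusted p = 0.143, 0.152 and 0.189). Cyc1, the cytochrome c1 gene, stood at 589.6 and 324 CPM in the libraries labelled Stc1, 491 and 675 in those labelled Pygo1, 555 and 574 in those labelled Rlim, and 497 and 547 in WT. The Stc1 and Pygo1 pairs each straddled WT.

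Cycs (chromosome 6, 50562563 to 50566538), whose product carries electrons from complex III to complex IV, showed the largest downward value of the set. It stood at 33.3 and 12.5 CPM in the libraries labelled Stc1, 10.9 and 14.3 in those labelled Pygo1, 15.6 and 16.1 in those labelled Rlim, and 26.9 and 26.7 in WT. The Pygo1 and Rlim pairs lay below WT without overlap, and the Stc1 pair lay on both sides of it. The log2 fold changes were -0.23 ± 0.40, -1.08 ± 0.41 and -0.75 ± 0.41, and none passed (edgeR, adjusted p = 0.821, 0.201 and 0.385). The Stc1 pair was the most widely spread of the 4 pairs for this gene. Without Stc1 replicate 1 the Pygo1 and Rlim values were -1.09 and -0.76 (edgeR, adjusted p = 0.00394 and 0.0152), and without Stc1 replicate 2 they were -1.09 and -0.76 (edgeR, adjusted p = 0.00367 and 0.0142), with the lone Stc1 library assumed to vary like the others. Over all 15 alternatives the adjusted p ran from 0.00367 to 0.566 under the Pygo1 label and from 1.46e-18 to 0.805 under the Rlim label.

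In complex IV, cytochrome c oxidase, the 11 generally used subunits had median log2 fold changes of -0.36, -0.28 and -0.32 for the Stc1, Pygo1 and Rlim labels. Cox4i1, the largest nuclear subunit, stood at 752 and 718 CPM in the libraries labelled Stc1, 537 and 623 in those labelled Pygo1, 585 and 614 in those labelled Rlim, and 665 and 744 in WT. Its values overlapped WT under the Stc1 label and did not under the others (log2 fold changes 0.06, -0.28 and -0.23; edgeR, adjusted p = 0.857, 0.277 and 0.399). Cox5b differed between labels in the other sense. It stood at 127 and 111 CPM in the libraries labelled Stc1, 169 and 187 in those labelled Pygo1, 185 and 185 in those labelled Rlim, and 157 and 176 in WT. The difference between the Stc1 and Pygo1 labels was -0.58 and between the Stc1 and Rlim labels -0.63, and neither passed (edgeR, adjusted p = 0.0765 and 0.0957). Ndufa4, once placed in complex I and now known as a complex IV subunit, had log2 fold changes of -0.60, -0.57 and -0.32.

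Cox7a2l, which links complexes III and IV into supercomplexes (chromosome 17, 83501918 to 83517330), measured 94.3 and 120.4 CPM in the libraries labelled Stc1, 79.1 and 59.4 in those labelled Pygo1, 92.6 and 92 in those labelled Rlim, and 113 and 132 in WT. Both Pygo1 values were the lowest of the 8. The log2 fold change of -0.83 ± 0.19 under the Pygo1 label did not pass (edgeR, adjusted p = 0.0725), and it passed in the same model with each chromosome scaled to WT (-0.79; edgeR, adjusted p = 0.0279), an alternative chosen after seeing the data. Over all 15 alternatives its adjusted p ran from 0.0044 to 0.441. The isoform Ndufa4l2 had the highest fitted values, with log2 fold changes of 2.47 ± 0.73 and 1.79 ± 0.75 under the Pygo1 and Rlim labels (edgeR, adjusted p = 0.127 and 0.273). It stood at 0.252 and 0.33 CPM in the libraries labelled Pygo1, 0.131 and 0.231 in those labelled Rlim, and 0.0651 and 0.0376 in WT, so it passed the expression filter through the labelled groups and lay near the limit of detection throughout. Cox7a1, highest of the remainder under the Rlim label at 0.39 ± 0.74, was as sparse.

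Complex V, the ATP synthase, summed to 6031 and 4298 CPM in the libraries labelled Stc1, 4745 and 5169 in those labelled Pygo1, 5685 and 5709.9 in those labelled Rlim, and 5349 and 5798 in WT. The 5 genes of the catalytic F1 head had median log2 fold changes of -0.03, -0.17 and 0.08 for the Stc1, Pygo1 and Rlim labels. Of the 3 genes of the rotating c ring, Atp5g1 to Atp5g3, the medians were -0.17, -0.08 and 0.16. The 4 genes of the peripheral stalk had medians of -0.30, -0.25 and -0.32. The 4 small membrane subunits Atp5j2, Atp5k, Atp5l and Atp5mpl had medians of -0.42, -0.25 and -0.35.

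Atp5b stood at 2455 and 1703 CPM in the libraries labelled Stc1, 1809 and 1981 in those labelled Pygo1, 2243 and 2282 in those labelled Rlim, and 2044 and 2208 in WT. Only the Pygo1 pair lay below both WT libraries (log2 fold change -0.17 ± 0.19). Atp5d of the head and Atp5g2 of the ring were the highest of the abundant genes under the Rlim label, each at 0.24 on the log2 scale (adjusted p = 0.605 and 0.441, edgeR). Atp5l, subunit g of the membrane part, stood at 55.4 and 42.5 CPM in the libraries labelled Stc1, 45.2 and 52.3 in those labelled Pygo1, 54.1 and 50.9 in those labelled Rlim, and 59.5 and 72.1 in WT. All 6 values lay below WT (log2 fold changes -0.43, -0.43 and -0.33; edgeR, adjusted p = 0.285, 0.216 and 0.373).

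**Figure D3:**
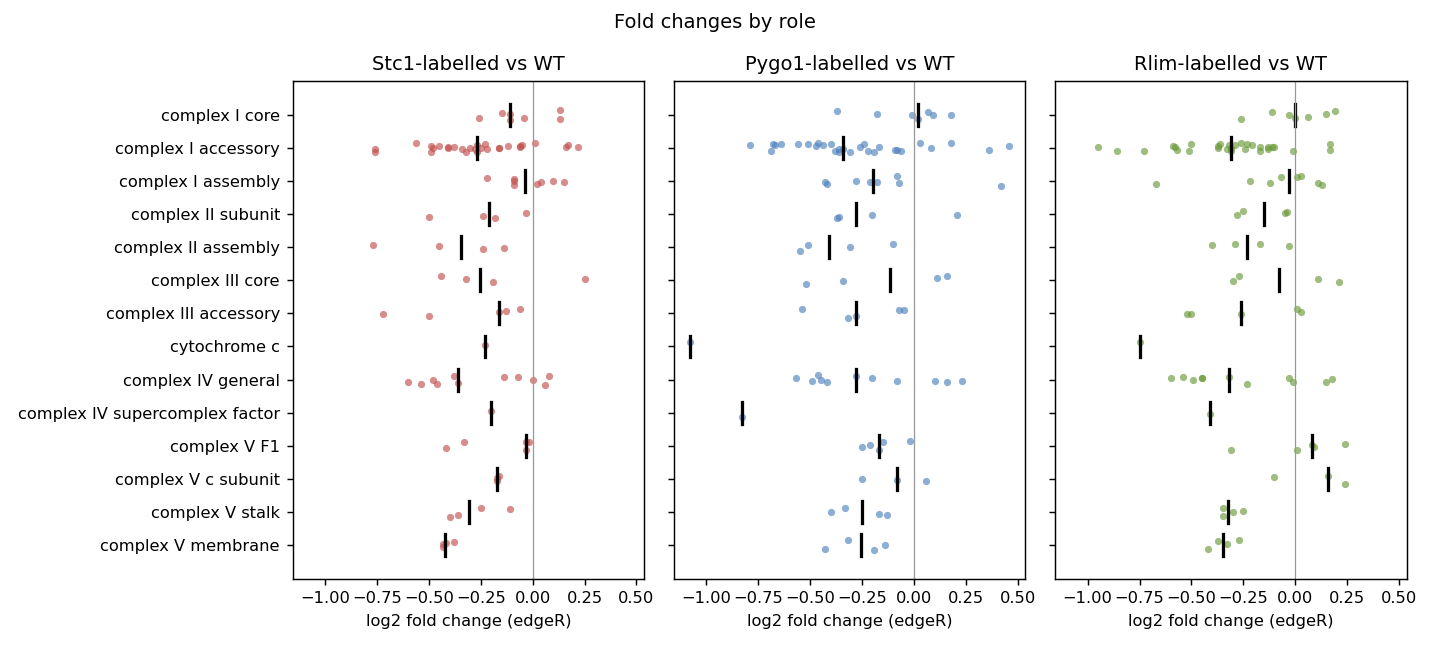
Fitted log2 fold change against WT (edgeR, n = 2 libraries per group) of each tested gene, grouped by its role, with Stc1, Pygo1 and Rlim labels from left to right; points are genes and black bars medians. The alternative complex IV isoforms and Atp5s are not drawn. Accessory subunits of complex I and membrane subunits of complex V had medians between -0.25 and -0.42, while core subunits of complex I had medians between -0.11 and 0.02.

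Between labels, the comparisons of the Stc1 label again turned on the spread of its pair. Median log2 differences over the 94 genes were 0.02 between the Stc1 and Pygo1 labels, -0.03 between the Stc1 and Rlim labels and -0.06 between the Pygo1 and Rlim labels. In each of these comparisons 0 genes were called by edgeR, against 1.74%, 0.381% and 1.02% of all genes. At an unadjusted p under 0.05, Stc1 against Pygo1 had 5 genes lower and 5 higher (8.99% and 8.45% of all genes), Stc1 against Rlim 3 lower and 3 higher (6.97% and 7.97%), and Pygo1 against Rlim 1 lower and 3 higher (7.13% and 9.05%). DESeq2 called 1, 2 and 1 genes in these comparisons, against 7.29%, 4.77% and 6.24% of all genes. Without Stc1 replicate 1, the medians were -0.20 for Stc1 against Pygo1 and -0.25 for Stc1 against Rlim. EdgeR then called 20 genes lower and 2 higher in the first comparison (12.1% and 9.83% of all genes), and 26 lower and 4 higher in the second (13.3% and 12.6%). Without Stc1 replicate 2, the medians were 0.16 and 0.10, on the other side of 0. EdgeR then called 1 gene lower and 9 higher for Stc1 against Pygo1 (6.85% and 5.90% of all genes), and 0 lower and 5 higher for Stc1 against Rlim (2.39% and 2.54%). The medians near 0 of the Stc1 label with all libraries thus average a pair of libraries on opposite sides. For Pygo1 against Rlim the median stayed at -0.06 without Stc1 replicate 1 or 2. A p above the threshold does not show that the labels act alike.

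Shorter genes of the set had lower medians. The 94 genes had a median exon length of 1772 bases, against 4613 over 10442 genes that averaged 5 CPM or more. Genes of the set under 1500 bases had median log2 fold changes of -0.31, -0.32 and -0.30 for the Stc1, Pygo1 and Rlim labels, and longer ones -0.16, -0.19 and -0.15. Over the wider list, genes under 1500 bases had medians of -0.12, -0.14 and -0.25, and longer ones -0.01, -0.04 and -0.01. Between the WT libraries themselves, the difference of replicate 2 from replicate 1 followed length with a Spearman rho of -0.41 across 10442 genes. The Spearman rho between length and fold change was 0.27, 0.05 and 0.14 across the 94 genes for the Stc1, Pygo1 and Rlim labels, and 0.13, 0.06 and 0.15 across the 10442. Genes are not independent replicates, so these are descriptions. The part of length in the fold changes was not tested.

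None of the 13 mitochondrially encoded subunits was called by edgeR under any label. Their median log2 level relative to the WT mean was -0.07 and -0.80 in the libraries labelled Stc1, -0.54 and -0.46 in those labelled Pygo1, -0.30 and -0.37 in those labelled Rlim, and 0.04 and -0.04 in WT. At an unadjusted p under 0.05, 1, 4 and 2 of the 13 were lower under the Stc1, Pygo1 and Rlim labels (7.56%, 9.37% and 9.09% of all genes) and 0 higher, and DESeq2 called 0, 0 and 2 (5.24%, 9.46% and 7.85%).

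The values also varied with the chromosome on which a gene lies. Chromosome medians of fold change were taken over the tested genes that averaged 5 CPM or more. Across the 94 genes, the fold change correlated with the median of the same chromosome. Pearson's r was 0.37, 0.32 and 0.51 for the Stc1, Pygo1 and Rlim labels. Genes of one chromosome share their x value, so these describe the set and are no test. After subtracting the chromosome medians, the median log2 fold changes of the set were -0.18, -0.18 and -0.15. Of the 94 genes, 79, 71 and 72 lay below the median of their chromosome. By definition, as many of the genes that set a median lie below it as above. The 94 also include genes that averaged under 5 CPM, and the share below over all tested genes was not computed.

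**Figure D4:**
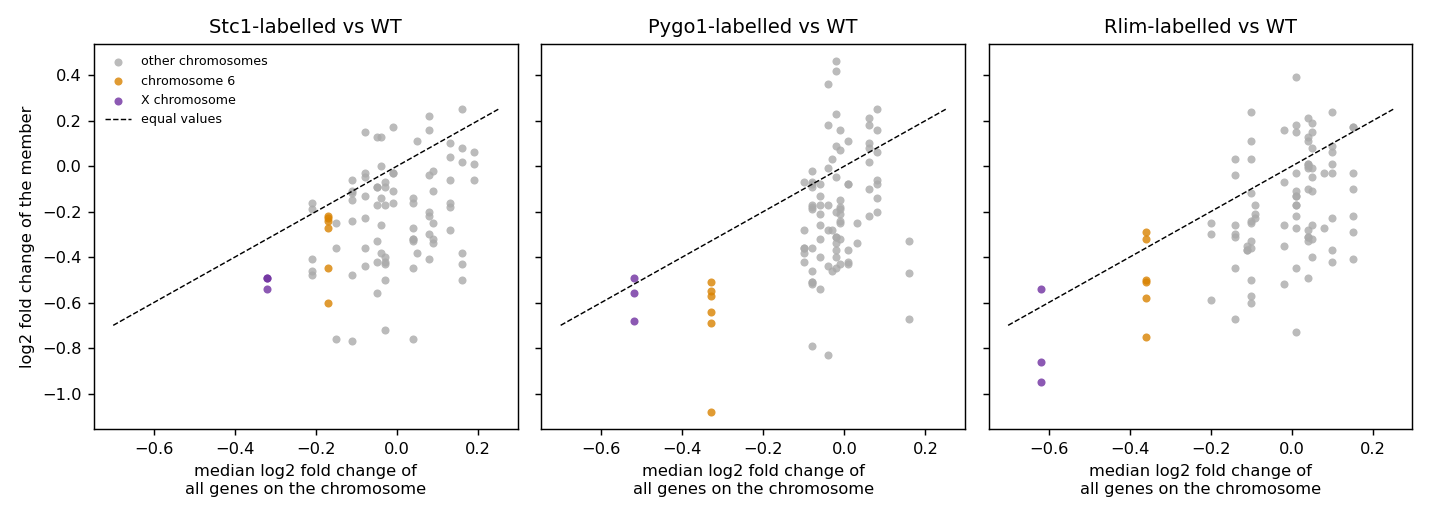
Log2 fold change of each gene of the set against the median log2 fold change of its chromosome, for the Stc1, Pygo1 and Rlim labels. Medians are over tested genes that averaged 5 CPM or more, and Ndufa4l2 is not drawn. Points below the dashed line were lower than their chromosome. X-linked genes (purple) and chromosome 6 genes (orange) sit at the lower left under the Pygo1 and Rlim labels, where the chromosome medians were -0.52 and -0.62 for the X and -0.33 and -0.36 for chromosome 6.

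The 3 X-linked genes of the set are Ndufa1 and Ndufb11, both needed to assemble the membrane arm of complex I, and Cox7b of complex IV. Ndufa1 (X chromosome, 37187588 to 37191163) measured 17.8 and 27.6 CPM in the libraries labelled Stc1, 23.8 and 19.4 in those labelled Pygo1, 16.4 and 16.6 in those labelled Rlim, and 30.9 and 32.7 in WT. Ndufb11 (20615326 to 20617619) stood at 65.5 and 100.4 CPM in the libraries labelled Stc1, 83.8 and 61.3 in those labelled Pygo1, 62.9 and 65.7 in those labelled Rlim, and 110.3 and 123 in WT. Cox7b (106015700 to 106022450) stood at 38.9 and 49.7 CPM in the libraries labelled Stc1, 51.9 and 40 in those labelled Pygo1, 45.7 and 42.7 in those labelled Rlim, and 64.6 and 64.3 in WT. For each of these genes all 6 values lay below both WT values. Under the Rlim label the log2 fold changes were -0.95 ± 0.22, -0.86 ± 0.23 and -0.54 ± 0.17 for Ndufa1, Ndufb11 and Cox7b (edgeR, adjusted p = 0.0908, 0.124 and 0.168). With each chromosome scaled to WT, chosen after seeing the data, they were -0.35, -0.26 and 0.06, so the sign of Cox7b turned. The median over 301 X-linked genes that averaged 5 CPM or more was -0.32, -0.52 and -0.62 for the Stc1, Pygo1 and Rlim labels. Reads of genome 1 made up at most 1.59% of the genome-assigned reads of these 3 genes in any library. Which of the parents is genome 1 was not given.

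Genome-assigned reads could be tested for 90 genes of the set, where each library held 20 or more of them. The share of genome 1 differed from WT for 7 of the 90 genes under the Stc1 label (5.70% of 12305 genes tested), 19 under the Pygo1 label (20.3%) and 11 under the Rlim label (12.2%), by an edgeR model of both genomes at an adjusted p under 0.05. Of these, 2 moved toward genome 1 and 5 toward genome 2 under the Stc1 label (1.10% and 4.60% of all genes), 12 and 7 under the Pygo1 label (12.1% and 8.19%), and 11 and 0 under the Rlim label (9.71% and 2.48%). The totals were 7.78%, 21.1% and 12.2% of the 90 genes. Without WT replicate 1 or 2, calls were fewer under the Stc1 and Pygo1 labels and were lost under the Rlim label. Calls under the Rlim label were also lost without Rlim replicate 1 or 2. In each case the same held over all genes.

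Changed shares on chromosomes 2, 3 and 9 stood beside shifts of the chromosome median in the same direction. Over 887 genes of chromosome 2 the median genome 1 share was 1.35% and 1.38% in the libraries labelled Stc1, 1.45% and 1.35% in those labelled Pygo1, 23.4% and 23.3% in those labelled Rlim, and 6.82% and 6.93% in WT. Among them Atp5c1, the gamma subunit of complex V, drew 0.425% and 0.407% of its assigned reads from genome 1 in the libraries labelled Stc1, 0.551% and 0.332% in those labelled Pygo1, 28.6% and 27.2% in those labelled Rlim, and 5.88% and 5.46% in WT. Atp5e, Atp5g3, Ndufaf5 and Ndufs3 on the same chromosome moved likewise, toward genome 2 under the Stc1 and Pygo1 labels and toward genome 1 under the Rlim label, all past the test. On chromosome 3, the 3 genes Ndufb5, Ndufc1 and Atp5f1 drew 99.6 to 99.9% of their reads from genome 1 in the libraries labelled Pygo1, and 69.9 to 73.6% in WT. The median over 568 genes of that chromosome was 99.8% in both libraries labelled Pygo1, and 79.3% and 79.2% in WT. Log2 odds of genome 1 of the 3 genes rose by 7.20, 7.37 and 7.73 (edgeR, adjusted p = 0.000185, 6.13e-05 and 0.000509).

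On chromosome 9, Sdhd and Cox5a drew 99.9 to 100% from genome 1 in the libraries of each mutant and 99.2 to 99.4% in WT, a small difference that passed under all 3 labels. The chromosome's median over 639 genes was 99.9% in every mutant library and 98.7% in WT.

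Chromosome 6 carries 6 genes of the set, and Cycs is one of them. The genome 1 share of Cycs was 53.4% and 35.8% in the libraries labelled Stc1, 88.9% and 99.8% in those labelled Pygo1, 99.7% and 99.9% in those labelled Rlim, and 52.3% and 52.2% in WT (the widest 95% Wilson interval, which covers counting error only, spans 3.98 points either side). In the libraries labelled Rlim, Cycs had 9.36 and 9.74 CPM from genome 1 and 0.0262 and 0.0128 CPM from genome 2, and in WT 8.57 and 8.16 CPM from genome 1 and 7.8 and 7.46 CPM from genome 2. The RNA of genome 2 was thus near 0 under the Rlim label, and that of genome 1 lay above WT in both libraries (share: edgeR, adjusted p = 0.0399). Ndufb2 and Ndufa9 changed in the same way under the Rlim label (edgeR, adjusted p = 0.0257 and 0.0146). Ndufa4 and Sdhaf3, which lie nearest the start of the chromosome, kept 71.3 to 82.7% in the libraries labelled Rlim, against 63.6 to 82.1% in WT. Across 555 genes of chromosome 6, the median share was 99.7% and 99.8% in the libraries labelled Rlim and 72% and 71.9% in WT.

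Single libraries also stood apart. In Stc1 replicate 1, Cox5b and Sdhaf4 on chromosome 1 drew 97.5% and 99.5% of their reads from genome 1, against 63.6% and 68.3% in Stc1 replicate 2, 70.2% and 73.3% in WT replicate 1, and 70.5% and 73.9% in WT replicate 2. The other chromosome 1 genes of the set stayed between 39.1 and 72.1% in that library. In Pygo1 replicate 2 the 5 tested genes of chromosome 19 and the 3 of chromosome 5 stood between 99.7 and 100%, and in Pygo1 replicate 1 between 76.8 and 99.9%. The p-values of a label with such a pair rest on libraries that differ in genome content.

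**Figure D5:**
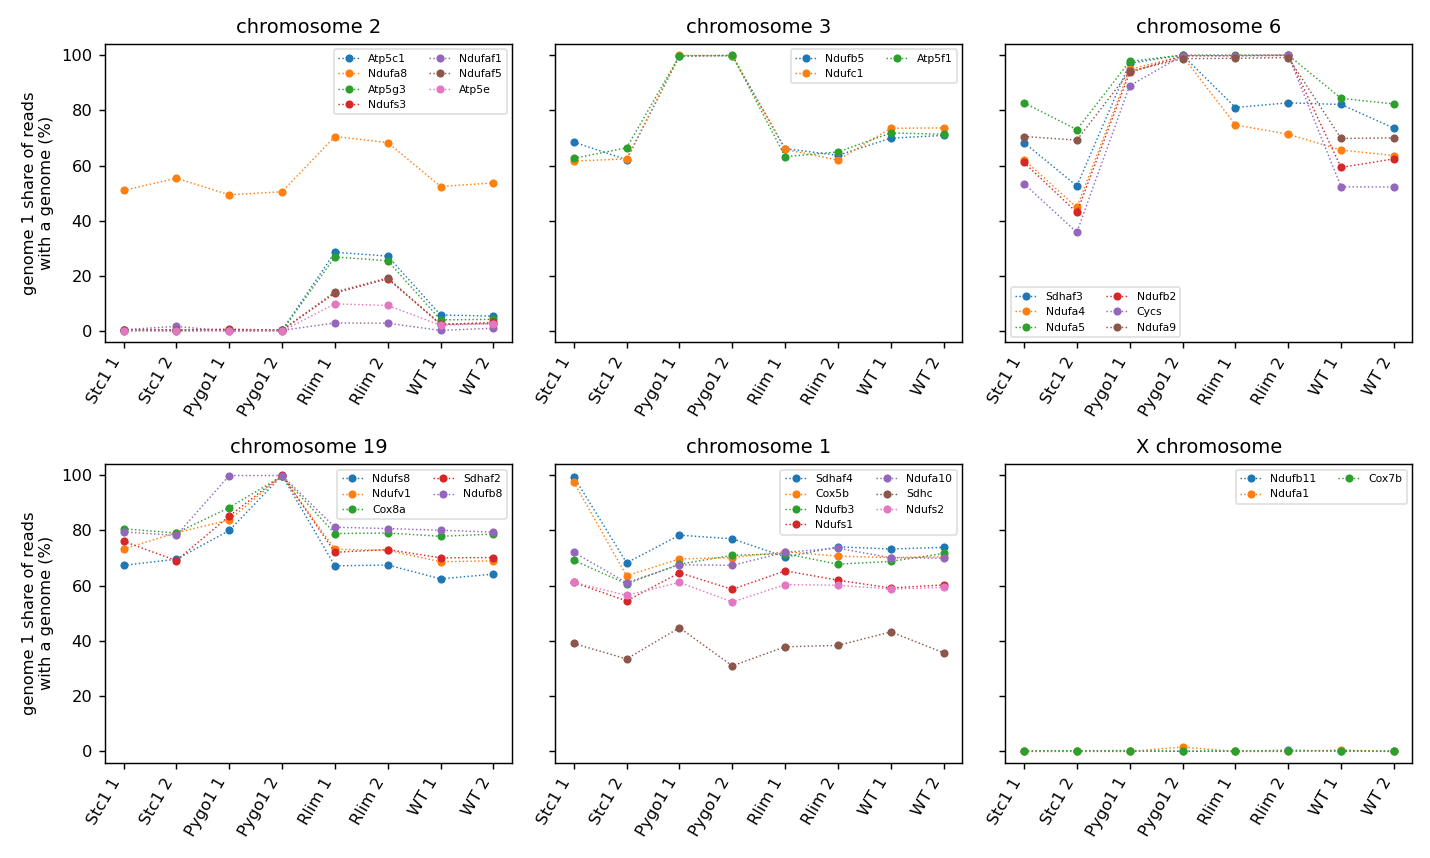
Share of genome-assigned reads from genome 1 (percent) for the tested genes of 6 chromosomes in each library; dotted lines only join the points of one gene. Chromosome 3 genes stood at 99.6% or more in both Pygo1 libraries, the chromosome 6 genes other than Ndufa4 and Sdhaf3 at 98.8% or more in both Rlim libraries, and X-linked genes near 0 throughout.

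Some genes of the set disagreed with their chromosome in every library. The genome 1 share of 9 genes, Atp5mpl, Cox7a2, Ndufa11, Ndufa12, Ndufa8, Ndufb10, Ndufs4, Sdhc and Uqcrq, lay over 20 points from the median of their chromosome in all 8 libraries. These were 10% of the 90 genes, against 8.21% of 12280 genes (1008) over the whole table. Cox7a2 on chromosome 9, for example, stood at 25.4% and 26.2% in the libraries labelled Stc1, 24.6% and 26.9% in those labelled Pygo1, 24.5% and 25.9% in those labelled Rlim, and 25.5% and 24.9% in WT, where the chromosome medians were 98.7% in WT and 99.9% in all others. None of these 9 except Ndufa8 under the Rlim label changed past the test (edgeR, adjusted p = 0.0208 for Ndufa8). Whether the reads of these genes were placed on the right gene and assigned to the right genome was not tested. The shares are therefore no measure of expression from each parent. For Ndufa12, the pseudogene Gm15920 of nearly the same sequence held more counts than the gene in every library, as described below.

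How reads were counted limits several genes. Processed pseudogenes are common for this family. A near copy was an annotated transcript of another gene with at least 95% identity over at least 50% of a protein-coding transcript. Such a copy was found for 17 of the 94 tested genes. In 5 of them a copy held over 10% of the gene's own counts. Ndufa12, an accessory subunit of complex I on chromosome 10, had fewer counts than its copy Gm15920 on chromosome 5: 1937 and 1075 for Ndufa12 beside 2189 and 1583 for Gm15920 in the libraries labelled Stc1, and 1429 and 1437 beside 2437 and 3039 in WT. For Atp5o, the stalk subunit OSCP on chromosome 16, its copy Gm5436 on chromosome 12 held 5654 and 3292 counts beside 17298 and 10297 of its own in the libraries labelled Stc1, and 5297 and 5988 beside 16344 and 18801 in WT. Values of both genes are uncertain for this reason. The log2 fold change of Ndufa12 under the Stc1 label was 0.17 ± 0.27, and it was -0.36 without Stc1 replicate 1 (edgeR, adjusted p = 0.0795). The lines below give 120 bases of each coding sequence and of the aligned copy from the reference (GRCm38, on the gene's own strand; Ndufa12 from base 37 and Atp5o from base 1 of the coding sequence), with capitals where the pair differs, to show how few bases tell them apart. Over the whole alignment the identity was 99.5% of 399 bases for Ndufa12 and 97.0% of 639 bases for Atp5o.
Ndufa12: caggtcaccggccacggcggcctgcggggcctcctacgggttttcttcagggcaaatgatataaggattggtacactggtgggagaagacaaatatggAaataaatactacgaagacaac
Gm15920: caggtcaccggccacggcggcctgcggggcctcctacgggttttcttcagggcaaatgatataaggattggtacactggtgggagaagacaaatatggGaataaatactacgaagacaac
Atp5o: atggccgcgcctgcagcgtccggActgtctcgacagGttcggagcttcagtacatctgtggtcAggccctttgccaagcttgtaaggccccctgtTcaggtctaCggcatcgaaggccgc
Gm5436: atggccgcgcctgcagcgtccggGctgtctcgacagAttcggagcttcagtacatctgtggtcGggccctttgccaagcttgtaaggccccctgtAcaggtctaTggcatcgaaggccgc
The other copies over this limit were those of Ndufs6, Uqcrb and Ndufab1. In addition 31 genes of the set overlap a gene on the other strand and 3 a gene on the same strand, and reads of such partners may be counted in either.

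Genes that serve the same organelle were examined next, from lists chosen with the results of these data known. Of 40 tested assembly factors outside the set, of 21 regulators of respiratory genes, of 19 genes listed under the tricarboxylic acid cycle and of 28 listed under mitochondrial import and the outer membrane, edgeR called 0 under any label. The cycle list also held the pyruvate enzymes Pdha1, Pdhb, Dlat, Pdhx and Pcx. The import list also held the inner-membrane carriers Slc25a3, Slc25a4 and Slc25a5 and the matrix chaperonins Hspd1 and Hspe1. Both names below stand for the whole lists. Over all genes, 7.56%, 9.37% and 9.09% were lower and 8.48%, 11.3% and 8.82% higher at an unadjusted p under 0.05 for the Stc1, Pygo1 and Rlim labels, and DESeq2 called 5.24%, 9.46% and 7.85%. At an unadjusted p under 0.05, assembly factors numbered 7, 4 and 4 lower and 0 higher under the Stc1, Pygo1 and Rlim labels, and DESeq2 called 4, 0 and 1. Tricarboxylic acid cycle genes numbered 2, 5 and 4 lower and 0, 0 and 2 higher, with 1, 5 and 1 called by DESeq2. Import genes numbered 4, 4 and 6 lower and 1, 1 and 0 higher, with 1, 3 and 0 called by DESeq2. Assembly factors had median log2 fold changes of -0.18, -0.13 and -0.13 for the Stc1, Pygo1 and Rlim labels, import genes -0.16, -0.22 and -0.15, and tricarboxylic acid cycle genes -0.25, -0.26 and -0.06. Regulators had medians of -0.01, -0.05 and 0.10, with 1, 2 and 3 lower and 2, 2 and 2 higher at an unadjusted p under 0.05 and 1 called by DESeq2 under each label. Among them Nrf1, a transcription factor of many respiratory genes, stood at 34.4 and 30.4 CPM in the libraries labelled Stc1, 27.6 and 28.4 in those labelled Pygo1, 30.2 and 28.8 in those labelled Rlim, and 34.5 and 40.8 in WT (edgeR, adjusted p = 0.461, 0.137 and 0.23). Ppargc1a, a coactivator of mitochondrial biogenesis, stood at 92.1 and 49.3 CPM in the libraries labelled Stc1, 89.7 and 68.1 in those labelled Pygo1, 93.4 and 88.5 in those labelled Rlim, and 85.4 and 77.9 in WT, with overlap under the Stc1 and Pygo1 labels. Ppargc1b, a related coactivator, was the highest regulator under each label, at 2.78 and 5.05 CPM in the libraries labelled Stc1, 3.45 and 4.02 in those labelled Pygo1, 2.82 and 3.28 in those labelled Rlim, and 1.8 and 2 in WT. All 6 values lay above WT (log2 fold changes 1.04, 0.97 and 0.68, each ± 0.31; edgeR, adjusted p = 0.19, 0.145 and 0.308). Esrrb, an orphan nuclear receptor, stood at 0.18 and 0 CPM in the libraries labelled Stc1, 0.0629 and 0.0413 in those labelled Pygo1, 0.0131 and 0 in those labelled Rlim, and 1.88 and 1.68 in WT. It was low in all 6 labelled libraries and did not pass (edgeR, adjusted p = 0.132, 0.0654 and 0.0542).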

How the data were processed

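Gene counts were deposited by the authors for 8 libraries of total RNA from Patski cells, as all reads per gene and as reads of genome 1 and genome 2. Reads were processed against mm10 with featureCounts, Cufflinks and HISAT2 2.0.5, per the submitters' processing notes. The annotation version, strand setting, handling of multi-mapping reads and the tool that split the genomes are not given in the sources used here. Identifiers were matched to GENCODE mouse release 21 (GRCm38), which gave 49411 of 49670 genes.

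Counts were analysed with edgeR 4.0.16 in R 4.3.3 (TMM scaling, filterByExpr, quasi-likelihood test, 1 mean per group, all 8 libraries), with Benjamini-Hochberg adjustment over all genes and calls at an adjusted p under 0.05. The common biological coefficient of variation was 24.6%. Genome shares were tested in edgeR with a term per library and a genome term per group, for 12305 genes with at least 20 assigned reads in every library; 329 genes whose genome counts summed to over the total were left out. DESeq2 1.42.0, other scalings, no filter, a replicate block, fits of the compared groups alone and leaving out each library were tried. Scripts were tested on simulated data. Near copies were found with BLAST 2.17.0 and figures drawn with matplotlib 3.10.9 in Python 3.11.15. Intervals of shares are 95% Wilson intervals and cover counting error only.

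Genes and lists were chosen with earlier results of these data known. Genes named by rule were the 4 with the lowest and the 4 with the highest fold change under each label, X-linked genes, isoform families, the extremes of level per length and those with changed genome share; others were chosen after their values were seen. A promoter motif search was planned and not run.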

Additional observations from a re-analysis of the deposited data

Results flagged for a closer look

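The genome 1 share of 5 genes on chromosome 2 moved in opposite directions by label, toward genome 2 under the Stc1 and Pygo1 labels and toward genome 1 under the Rlim label, in both libraries of each label. The genes were chosen because they had passed against WT in opposite directions. A test between labels is therefore no separate support for them, and the difference is given as a description. As a difference in log2 odds of genome 1 (n = 2 libraries per label), it was -6.52 for Atp5c1, -6.74 for Atp5e, -7.71 for Atp5g3, -5.44 for Ndufaf5 and -5.22 for Ndufs3 between the Stc1 and Rlim labels. Between the Pygo1 and Rlim labels it was -6.46 for Atp5c1, -6.90 for Atp5e, -7.11 for Atp5g3, -5.51 for Ndufaf5 and -5.09 for Ndufs3. The median over 887 genes of the chromosome lay at 1.35% and 1.38% in the libraries labelled Stc1, 1.45% and 1.35% in those labelled Pygo1, 23.4% and 23.3% in those labelled Rlim, and 6.82% and 6.93% in WT, so the shift is not particular to these genes.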

How the results depend on the processing

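Counts of called genes depended on the setting far more than medians did. Over all genes, edgeR called 103, 419 and 250 under the Stc1, Pygo1 and Rlim labels. The counts were 361, 867 and 610 with no filter on low counts, 935, 1688 and 1400 with DESeq2, and 0, 1699 and 8340 with only the groups compared, where the Stc1 label had 1735 genes at an unadjusted p under 0.05. Leaving out 1 library gave 3 to 4484 under the Stc1 label, 8 to 3678 under the Pygo1 label and 3 to 3036 under the Rlim label. Of the respiratory chain genes, 0 were called in each comparison. DESeq2 called 5, 7 and 5 against WT, and 1, 2 and 1 for Stc1 against Pygo1, Stc1 against Rlim and Pygo1 against Rlim. With no filter there were 4 under the Pygo1 label, 2 under the Rlim label and 1 for Pygo1 against Rlim. Over all genes 867, 610 and 519 of 29381 were called there. With only the groups compared there were 9, 64 and 2 respiratory chain genes in the same comparisons. Over all genes 1699 of 17039, 8340 of 17040 and 972 of 17188 were then called. With each chromosome scaled to WT, chosen after seeing the data, 1 respiratory chain gene was called under the Pygo1 label, against 477 of 17839 genes. Leaving out 1 library gave 0 to 41, 0 to 29 and 0 to 21 against WT for the Stc1, Pygo1 and Rlim labels, and 0 to 22, 0 to 30 and 0 to 4 between labels in the order above.

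The median log2 fold change stayed below 0 in every alternative run. It ranged from -0.45 to -0.07 under the Stc1 label, -0.29 to -0.17 under the Pygo1 label and -0.23 to -0.16 under the Rlim label when 1 library was left out. Under the Rlim label it was -0.17 with upper-quartile scaling and -0.15 with each chromosome scaled to WT. That last scaling turned Cox7b to 0.05 under the Pygo1 label and 0.06 under the Rlim label, and Ndufa12 under the Stc1 label ranged from -0.36 to 0.54 when 1 library was left out. The cause was not tested. Genes with a changed genome share numbered 2 to 11, 9 to 33 and 0 to 19 with 1 library left out.

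Nothing in the labels ties same-numbered replicates together. Across 10445 genes, replicate differences correlated at 0.40 between WT and Rlim, 0.19 between WT and Pygo1, 0.18 between Pygo1 and Rlim, 0.01 between WT and Stc1, -0.01 between Stc1 and Rlim and -0.21 between Stc1 and Pygo1, so not every pair was over 0.1. With the replicate block, 18, 109 and 26 genes were called under the Stc1, Pygo1 and Rlim labels and 0 of the respiratory chain genes, with medians of -0.22, -0.25 and -0.24. In the genome share model the library terms take up a replicate block, and a replicate term on the share itself was not fitted. The promoter motif search was not run.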
